A study of Mus musculus with 30 samples.

Results

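The left and the right ovary of untreated adult mice were compared, transcript by transcript. The data are the 16 control libraries of a series of 30 ovary libraries, 1 per ovary, chosen by their column names: 8 left and 8 right ovaries, paired by the animal number that both ovaries of a mouse carry. All mice were C57BL/6 females. The series asks what colitis before puberty leaves behind in the ovary: 7 mice drank 3% dextran sulfate sodium (DSS), which injures the colon lining, for 7 days while immature, and the 8 control mice were their littermates without it. Ovaries of both groups were taken at sexual maturity; no age in days, cycle stage or weight was given. The 14 DSS libraries, also left and right ovaries of the same animals, were used here only to ask whether a side difference of the control mice was met again. Mice are named by group and animal number, such as control_10.5.

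A mouse has an ovary on each side, each held in a fat-lined bursa next to the coiled oviduct. Both ovaries carry oocytes in follicles, granulosa cells that make oestrogen and anti-Müllerian hormone, theca and interstitial cells that make androgen, and corpora lutea that make progesterone after ovulation. Because ovulation uses a few follicles at a time, follicles and corpora lutea of each stage need not be shared evenly between the sides. The oviduct lining is made of secretory cells, which release oviductin (Ovgp1), and of cells with motile cilia. Stratified squamous epithelium, the layered lining of skin, mouth, forestomach and vagina, is marked by keratins 5 and 14 in its basal layer, keratins 1, 4, 10 and 13 above it, and small proline-rich and late envelope proteins at its surface.

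Transcripts were read from their 3′ ends by CEL-Seq. Control left libraries held 3095386 to 4807853 reads (mean 4090277 ± 613368, SD, n = 8) and control right libraries 3695060 to 4755090 (mean 4274191 ± 401246, n = 8). The left library was the deeper one in 3 of 8 mice, and an exact two-sided sign-flip permutation test of the mean log2 ratio, -0.07, gave p = 0.578. Between 18633 and 20268 genes had at least 1 read. The ovarian genes Amh, Foxl2, Zp3 and Star were found in every library. Every left library has an odd and every right library the following even number in its title, in both groups, so that side and any step that went by library number cannot be told apart. Separate animals are the replicates, and in whole ovaries fewer cells of a type and less RNA per cell cannot be told apart.

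Of 14524 genes with a mean normalized count of at least 5, 404 (2.78%) differed between left and right ovaries at a Benjamini-Hochberg adjusted p under 0.05 (limma on log2(normalized count + 1), mouse as block). Of these, 185 (1.27%) were higher in the left ovary and 219 (1.51%) in the right. The genes fell into sets of unlike size. 50 genes were more than 2-fold higher on the left, with a median log2 difference of 2.12, and 20 of the 50 belonged to a list of stratified epithelium markers. Another 135 genes were higher on the left by up to 2-fold, with a median log2 difference of 0.38. On the right, 14 genes were higher by more than 2-fold, with a median of -2.02, and 205 by up to 2-fold, with a median of -0.38. All differences are left minus right, so a negative value means a higher level on the right. The count depended on the animals: it was 687 without control_15.4, between 179 and 301 when any other single mouse was left out, with the lowest count without control_11.4, and 36 in the 5 mice left after control_16.9, control_13.4 and control_10.5, whose right ovaries were rich in oviductin, were taken out.

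Many of the large left-sided differences were in genes of stratified squamous epithelium. Of 39 such markers 31 reached the expression minimum, and 30 of the 31 were higher on the left. The threshold was passed on that side by 22, and the median log2 difference of the 31 was 1.61. Over all genes 50.02% were higher on the left and 1.27% passed there. The list was chosen with earlier results of these data known. The minimum was a mean over both sides, so a marker could reach it through high left values alone. Both can raise the shares of the list. Of the 22, between 13 (without control_11.4) and 22 (without control_15.4) passed when single mice were left out, and 7 without the 3 mice whose right ovaries were rich in oviductin. Keratin 5 (Krt5, the basal keratin) stood at 283 normalized counts in the left and 48.0 in the right ovary of control_10.5, at 36.9 and 13.7 in control_10.6, at 800 and 54.6 in control_11.4, and at 1121 and 69.2 in control_13.4. In control_13.5 it stood at 52.2 and 10.35, in control_15.3 at 374 and 28.1, in control_15.4 at 95.4 and 33.3, and in control_16.9 at 369 and 47.6. The left ovary was the higher one in all 8 mice, but the groups overlapped, because the left ovaries of control_10.6 and control_13.5 lay below some right ovaries of other mice. The mean was 391 ± 386 on the left and 38.1 ± 20.4 on the right (SD, n = 8), a log2 difference of 2.76 ± 0.25 (SE; limma, adjusted p = 2.38e-05).

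The partner of Krt5 in basal cells, Krt14, ran from 19.9 through a median of 244 to 833 on the left and from 3.10 through 24.9 to 145 on the right. Its log2 difference was 2.83 ± 0.34 (SE). Sprr1a, a small proline-rich protein that is cross-linked into the cell envelope, shared the smallest adjusted p of all genes with Krt4, at 223, 615 and 3575 (lowest, median, highest) on the left and 47.6, 125 and 373 on the right, a log2 difference of 2.65 ± 0.19 (limma, adjusted p = 1.57e-06). Krt4, the suprabasal keratin of mouth and oesophagus, ran from 19.9 through 80.3 to 430 on the left and from 4.14 through 16.5 to 41.3 on the right. Each of Krt14, Sprr1a and Krt4 was higher on the left in 8 of 8 mice, and in each the ranges of the sides overlapped.

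**Figure D1:**
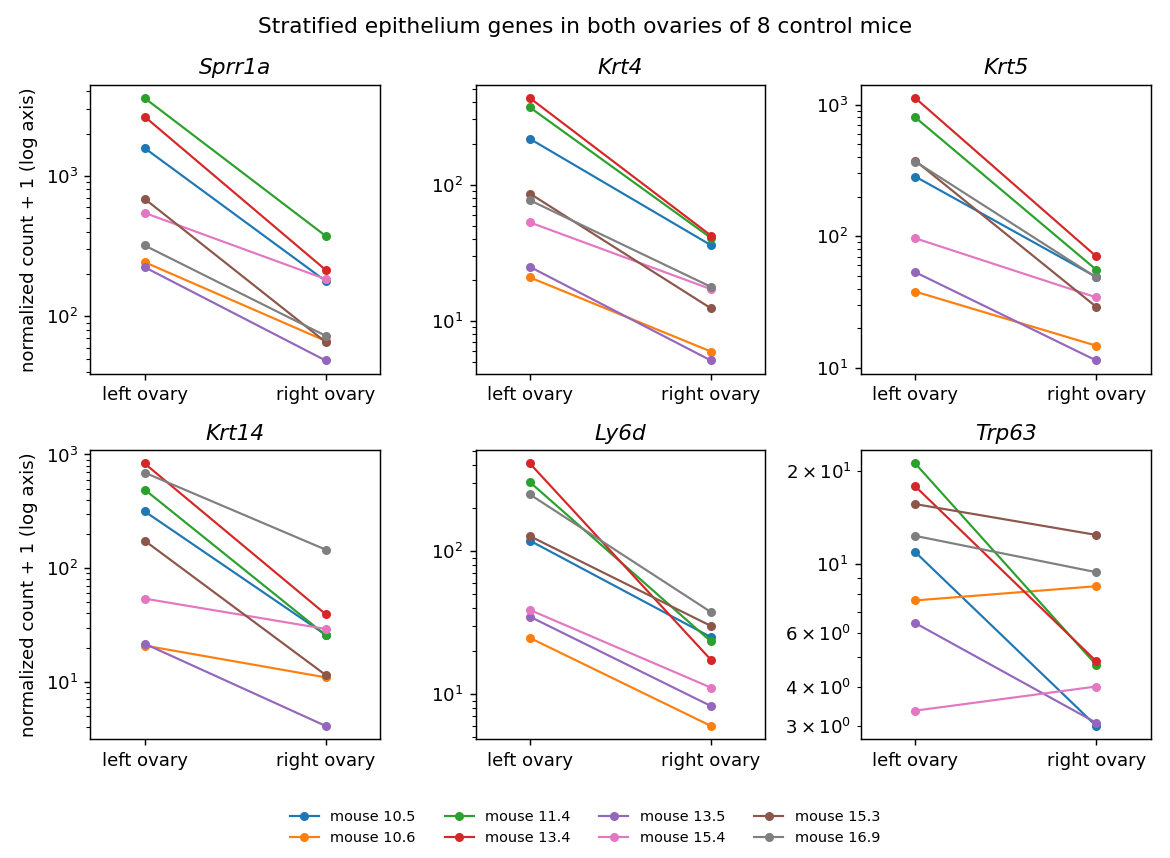
Normalized counts plus 1 (log axis) of 6 stratified epithelium genes in the left and right ovary of each control mouse; each line joins the ovaries of 1 mouse. Lines of the first 5 genes fall from left to right in all 8 mice, from levels that differ widely between mice, while Trp63 falls in 6 of 8.

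Levels also differed widely between mice. Mice control_13.4 and control_11.4 had the highest Krt5 on both sides and control_10.6 and control_13.5 the lowest, while control_15.3 came next after control_11.4 on the left but was among the lower ones on the right. Summed over the 39 markers, the left ovaries held 934 to 9365 normalized counts with a median of 3434 and the right ovaries 460 to 1543 with a median of 952. The left sum was the higher one in all 8 mice. It was smallest in control_10.6, with 934 on the left and 519 on the right, and largest in control_13.4, with 9365 and 1021. Markers of 2 other tissues also lay higher on the left. All 3 tested of 7 skeletal muscle markers did so and none passed, and their summed level, 10.17 to 87.3 on the left and 7.24 to 20.5 on the right, was higher on the left in 6 of 8 mice. It was highest in the left ovary of control_13.4 and, among DSS mice, at 56.8 in the left ovary of DSS_16.3, the ovaries with the highest stratified sums of their groups. The left ovary of control_16.9, with a stratified sum of 6972, had the lowest muscle sum on the left, 10.17, below the 20.5 on its right. Of pituitary hormones 2 of 3 tested were higher on the left and none passed, and their sum was higher on the left in 7 of 8 control and 7 of 7 DSS mice. The part of these in the left-sided differences was not tested.

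Genes of both layers and of the junctions that hold them together were among those higher on the left. Of the desmosome genes, Pkp1, a plaque protein, reached 2.84 to 87.1 on the left and 0 to 11.99 on the right, and Dsp, desmoplakin, 208 to 724 and 158 to 343. Dsp is shared with simple epithelia and had the smaller log2 difference, 0.79 against 2.54. Perp, a further desmosome protein, was higher on the left in 8 of 8 mice by 1.41. Gjb2, connexin 26 of gap junctions, differed by 2.10, and Ly6d, a surface protein of keratinocytes, by 2.66. The suprabasal keratins Krt1, Krt10 and Krt13 and the envelope proteins Lor (loricrin), Cnfn (cornifelin) and Sprr3 passed the threshold too. Their log2 differences lay between 1.36 for Lor and 2.43 for Krt13. Krt1 and Krt10 no longer passed without control_11.4, control_13.4, control_15.3 or control_16.9, with log2 differences of 1.36 to 1.55 and 1.28 to 1.37. Lor no longer passed without control_10.5, control_11.4, control_13.4, control_15.3 or control_16.9, with log2 differences of 1.15 to 1.38, nor Sprr3 without control_15.3 (2.21) or control_16.9 (2.34). Krt6a and Krt16, keratins of activated epithelium, differed by 2.23 and 1.96, and Krt16 no longer passed when any 1 of the 5 mice named for Lor was left out (1.65 to 2.003). Krt1, Krt10, Krt16 and Lor also missed the threshold without the expression minimum. With the mouse block left out of the fit, none of Krt1, Krt6a, Krt10, Krt13, Krt16, Lor, Cnfn, Pkp1, Gjb2, Perp and Dsp passed. Krt6a reads may be split with its near copy Krt6b.

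Not every marker did so. Trp63, the transcription factor of basal cells, was low, with a median of 10.61 on the left and 3.79 on the right, and with a log2 difference of 0.91 ± 0.33 (SE) it did not pass (limma, adjusted p = 0.162). It was higher on the left in 6 of 8 mice. Sbsn, suprabasin, was the only tested marker with a lower mean log2 level on the left, by 0.28, at 3.39 to 13.3 on the left and 4.81 to 18.0 on the right. Of the foregut and oral regulators Barx2, Pax9, Sox2, Pitx1, Krt84, Krt76 and Krt78, only Pitx1 reached the expression minimum. Pitx1, a homeobox factor of oral epithelium and hindlimb, was at 33.7, 47.7 and 71.6 (lowest, median, highest) on the left and at 8.99, 19.9 and 43.6 on the right, a log2 difference of 1.18 (limma, adjusted p = 0.0246; higher on the left in 6 of 8 mice). Its call was lost when any 1 of mice control_11.4, control_13.4, control_13.5, control_15.3 and control_16.9 was left out, with log2 differences of 1.06 to 1.22, and without the expression minimum or the mouse block.

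Among the 15 left-sided genes with the smallest p, 5 stood outside the marker list. Spink5 and Spink12, serine protease inhibitors of the Kazal type, of which Spink5 restrains shedding of the skin surface, differed by log2 2.81 and 2.40. Arg1, arginase 1, had 25.0, 176 and 659 on the left and 8.28, 34.8 and 65.7 on the right, a log2 difference of 2.14. 2310057J18Rik, a gene without a settled name, had the largest difference of the 404 genes, 3.21, with 4.71 to 160 on the left and 0 to 15.8 on the right. Tmed2, a carrier of the secretory pathway, was unlike the others in size and is given with the smaller differences. The gene families at the surface-layer cluster on chromosome 3 (GRCm38, 92079971 to 93399742; Sprr, Lce, Lor, Rptn, Crct1, Hrnr and Flg), a set chosen after values were seen, had 16 tested members, of which 16 were higher on the left and 8 passed. Likewise chosen afterwards, 5 of 7 type I keratins on chromosome 11 and 5 of 8 type II keratins on chromosome 15 passed on the left and none on the right. Over all tested genes 50.02% were higher on the left, 1.27% passed there and 1.51% passed on the right. Members of these families are alike in sequence, so that reads of close copies may be shared.

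Promoters of 3 of these genes, an envelope protein, a suprabasal and a basal keratin, are shown. Each gene was higher on the left in 8 of 8 control and 7 of 7 DSS mice. Each run is 300 bases, from 250 before to 50 after the transcript start, in RefSeq's table for GRCm38.p6, read on the minus strand. Capitals mark the AP-1 motif TGANTCA and the TATA box TATAAA, searched on both strands. The windows are chr3:92485832-92486131 for Sprr1a, chr11:100121517-100121816 for Krt13 and chr15:101712856-101713155 for Krt5.
Sprr1a: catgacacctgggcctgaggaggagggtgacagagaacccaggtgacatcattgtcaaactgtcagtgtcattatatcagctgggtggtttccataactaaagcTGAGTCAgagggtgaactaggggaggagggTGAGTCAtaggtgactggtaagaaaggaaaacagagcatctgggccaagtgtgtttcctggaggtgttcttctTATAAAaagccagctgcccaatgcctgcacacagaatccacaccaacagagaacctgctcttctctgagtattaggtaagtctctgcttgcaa
Krt13: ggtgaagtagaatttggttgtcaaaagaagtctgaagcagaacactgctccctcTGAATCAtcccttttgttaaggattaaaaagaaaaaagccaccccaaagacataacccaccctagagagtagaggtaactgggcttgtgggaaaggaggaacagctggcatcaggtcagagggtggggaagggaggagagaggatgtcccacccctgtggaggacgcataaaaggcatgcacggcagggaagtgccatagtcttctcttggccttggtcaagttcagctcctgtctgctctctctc
Krt5: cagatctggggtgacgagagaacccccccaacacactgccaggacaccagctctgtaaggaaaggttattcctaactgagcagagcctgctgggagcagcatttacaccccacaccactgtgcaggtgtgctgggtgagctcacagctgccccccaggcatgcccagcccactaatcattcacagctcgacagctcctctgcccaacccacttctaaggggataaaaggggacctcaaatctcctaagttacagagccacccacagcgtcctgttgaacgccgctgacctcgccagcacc
Sprr1a held 2 AP-1 motifs, beginning 146 and 116 bases before the start, and a TATA box 43 bases before it. Krt13 held 1 AP-1 motif, 196 bases before the start. Krt5 held neither. Of 10 named markers 6 had a row in the table, 2 of those 6 held an AP-1 motif and 1 a TATA box, against 7.81% and 13.6% of all 32851 promoters. With 6 windows these shares are a description only. Gjb2, also among the 6, was likewise higher on the left in every control and DSS mouse, held neither motif and is not shown. The window of Krt14, another of the 6, lies 1518 bases from its annotated start.

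The 14 genes that were over 2-fold higher on the right were Ovgp1, A2ml1, Kndc1, Frmpd2, Phactr1, Nek5, Rsph1, Ubxn10, Ppp1r1b, 1700040L02Rik, Spag17, Olfr1383, Tekt1 and 1700016K19Rik. Ovgp1, Tekt1 and Rsph1 are in the oviduct lists, and Spag17 codes for a protein of the central apparatus of motile cilia. Ovgp1, the oviductin of secretory cells, stood at 335 on the left and 41925 on the right in control_10.5, at 155 and 838 in control_10.6, at 145 and 3064 in control_11.4, at 264 and 18628 in control_13.4, and at 259 and 9169 in control_16.9. In control_13.5 it stood at 469 and 145, in control_15.3 at 216 and 133, and in control_15.4 at 120 and 213. It was thus higher on the right in 6 of 8 mice, by a wide margin in control_10.5, control_11.4, control_13.4 and control_16.9, and higher on the left in control_13.5 and control_15.3. The log2 difference was -2.94 ± 0.74 (SE; limma, adjusted p = 0.0440). The call was lost when any 1 of mice control_10.5, control_10.6, control_11.4, control_13.4 or control_16.9 was left out (log2 difference -2.36 to -3.01), and under edgeR (-3.26). It was also lost without the expression minimum, without the mouse block and in 1 fit over all 30 libraries, where adjusted p-values in limma were 0.0880, 0.155 and 0.101.

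Genes of motile cilia lay in the same direction. All 11 tested of 13 markers had a higher mean log2 level on the right, with a median of -1.63, and 2 passed: Tekt1, a filament protein of ciliary doublets (-2.14), and Rsph1, a radial spoke protein (-1.19). Rsph1 ran from 6.63 through 13.9 to 20.7 on the left and from 11.09 through 27.5 to 106 on the right, and the right ovaries of control_10.5 and control_16.9, with 94.9 and 106, stood highest. Summed over the list, the right ovaries of control_10.5 and control_16.9 held 1417 and 1426 normalized counts, and the other 14 control ovaries 72.9 to 402. Foxj1, the master regulator of motile cilia, was at 60.0 and 65.4 in those 2 ovaries and at 9.61 or less in the rest, and did not pass (limma, adjusted p = 0.170). On the left Foxj1 reached at most 1.33 and Tekt1 at most 3.79, so both met the expression minimum only through right ovaries. Such members enter because they are high on the right, so the count of 11 was partly set by the filter. Without the 3 mice whose right ovaries were rich in oviductin the median of the cilia list was -0.61, over the fewer markers that still reached the expression minimum. Among the mice kept was control_11.4, whose right ovary also had more Ovgp1 than its left. Tekt1 and Rsph1 no longer passed when any 1 of control_10.5, control_11.4, control_13.4 and control_16.9 was left out (log2 differences -1.76 to -2.14 for Tekt1 and -1.01 to -1.19 for Rsph1), nor Tekt1 without control_15.3 (-2.04). Neither passed without the expression minimum, without the mouse block or in 1 fit over all 30 libraries.

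In DSS mice the same genes lay the other way. All 11 cilia markers had a higher mean log2 level on the left there, with a median of 1.16, and none passed. Ovgp1 stood at 25161 on the left and 646 on the right in DSS_10.4, at 66716 and 973 in DSS_11.2, at 9953 and 10440 in DSS_11.1, and at 325 and 4798 in DSS_13.2. High Ovgp1 was therefore found on either side. Of the 14 genes, 1 had the same direction in DSS mice as in controls. For Ovgp1 the difference between the groups in the left minus right value was -4.85 on the log2 scale (limma, adjusted p = 0.524).

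**Figure D2:**
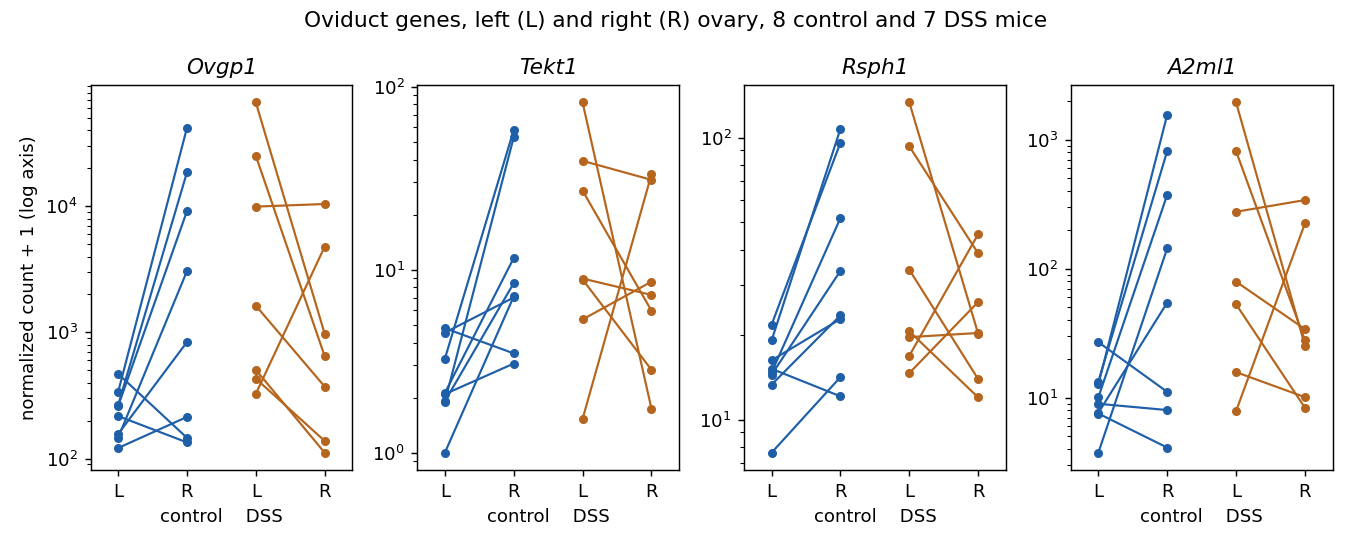
Normalized counts plus 1 (log axis) of 4 oviduct genes; each line joins the left (L) and right (R) ovary of 1 mouse, blue for 8 control and brown for 7 DSS mice. Steep lines rise to the right in some control mice and fall to the right in some DSS mice.

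A larger set of genes differed by a small amount and in nearly every mouse. Lamp1, the main glycoprotein of the lysosome membrane, had the smallest p of the genes higher on the right. It stood at 5114 on the left and 7548 on the right in control_10.5, at 4965 and 8001 in control_10.6, at 5172 and 7499 in control_11.4, and at 4622 and 7004 in control_13.4. It stood at 3793 and 7391 in control_13.5, at 4707 and 6458 in control_15.3, at 5267 and 6243 in control_15.4, and at 5182 and 7362 in control_16.9. No left ovary reached the lowest right ovary, so the groups did not overlap. The means were 4853 ± 487 and 7188 ± 588 (SD, n = 8), a log2 difference of -0.57 ± 0.07 (SE; limma, adjusted p = 0.000283). Lamp1 overlaps a neighbouring gene, Grtp1, and the strand setting of the count is not given in the sources used here.

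The others of the 15 right-sided genes with the smallest p came from several cell functions. Dync1i2, an intermediate chain of the dynein motor, ran from 890 through 1010 to 1123 on the left and from 1258 through 1352 to 1406 on the right, with no overlap (log2 difference -0.41). Ndufa12, a subunit of respiratory complex I, ran from 1507 through 1543 to 1652 and from 1821 through 2111 to 2356, again with no overlap (-0.43). Cycs, cytochrome c, differed by -0.43, with 2501 to 3177 on the left and 2904 to 4401 on the right. Tpm1, a tropomyosin, differed by -0.47, and Adk, adenosine kinase, by -0.43.

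Regulators of chromatin and of RNA were also among them. Kdm5a, a demethylase of histone H3 lysine 4, ran from 655 through 784 to 1133 on the left and from 903 through 1255 to 1531 on the right, a log2 difference of -0.58, with overlap between mice but not within one. Arid4a, a partner of the retinoblastoma protein, differed by -0.52, Anp32b, a histone chaperone, by -0.48, and Pnisr, a nuclear protein of splicing speckles, by -0.50. Zfp282, a zinc finger protein, had the largest difference of the 15, -0.72, at 68.3 to 118 on the left and 127 to 184 on the right. Rb1cc1, which starts autophagosomes, differed by -0.45, Bex3 by -0.38, Fam160b1 by -0.48 and 1810024B03Rik by -0.65. All 15 were higher on the right in 8 of 8 mice, an agreement that the paired test which picked them favours.

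On the left, Tmed2 was the counterpart of these genes. It ran from 5119 through 5343 to 5612 on the left and from 3881 through 4243 to 4521 on the right, with no overlap and a log2 difference of 0.34 ± 0.05 (SE; limma, adjusted p = 0.00147). Over all tested genes, 299 (2.06%) were higher on the left in every mouse and 353 (2.43%) higher on the right in every mouse. Of the genes that passed with differences up to 2-fold, 93 of 135 on the left and 157 of 205 on the right did so. They were picked by a paired test on the same mice, which favours genes whose mice agree. Their shares are therefore partly set by that choice.

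**Figure D3:**
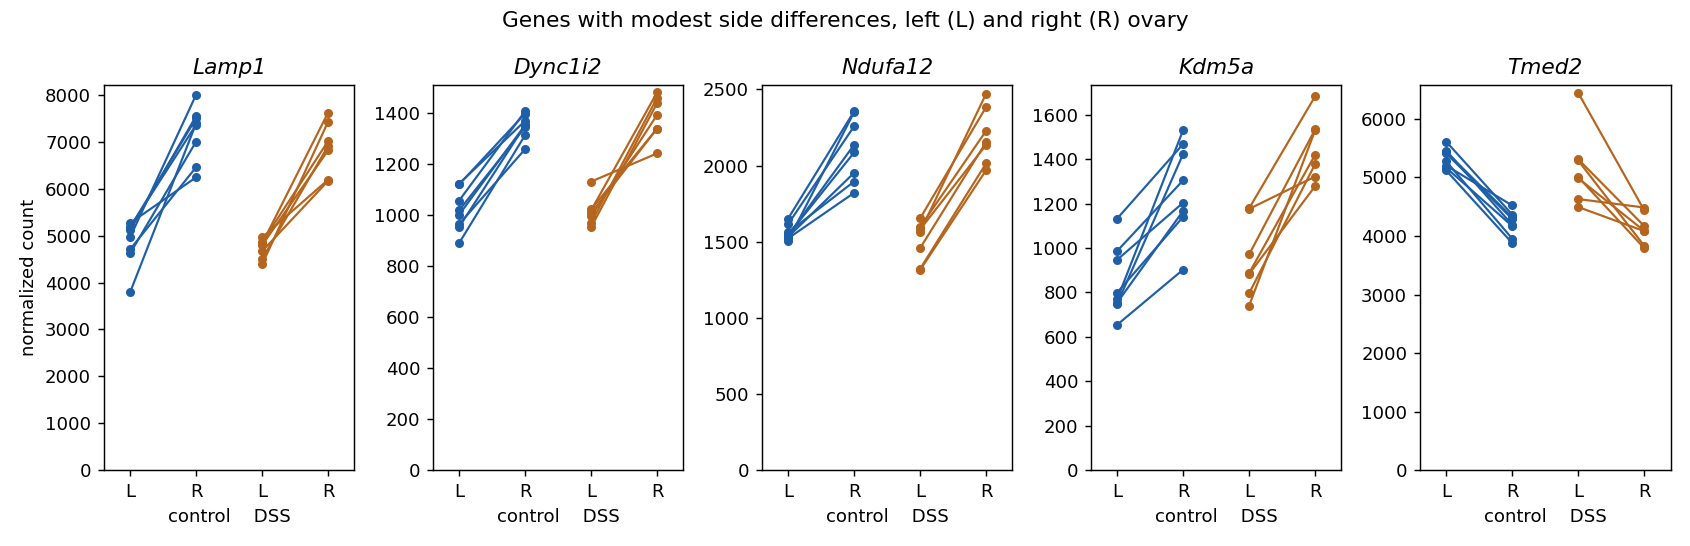
Normalized counts (linear axis from 0) of 5 genes with small side differences; each line joins the left (L) and right (R) ovary of 1 mouse, blue for 8 control and brown for 7 DSS mice. Lines of the first 4 genes rise to the right in every mouse of both groups, and those of Tmed2 fall.

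Gene families were also counted, chosen after values were seen. Over all tested genes 1.27% passed on the left and 1.51% on the right. Of 82 cytosolic ribosomal protein genes, 4 passed on the left (Rplp0, Rps24, Rps10 and Rps3a1) and 5 on the right (Rpsa, Rpl36, Rps26, Rpl37a and Rpl10); these genes have many near-identical copies and their counts are uncertain. Of 31 SR splicing factors and hnRNPs, 4 passed on the left (Hnrnpa2b1, Hnrnph2, Srsf4 and Srsf1) and none on the right. Of 15 transcripts of the mitochondrial genome, 12 had a higher mean log2 level on the right. Among them mt-Co3, a subunit of cytochrome oxidase, passed with a log2 difference of -0.30. The mt-Co3 call was lost without the expression minimum, without the mouse block and without the 3 mice whose right ovaries were rich in oviductin.

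The sets differed in transcript length and GC content, which played no part in choosing them, and in level, which did so through the expression minimum and the log2 scale. For each gene the longest annotated protein-coding transcript was used, or its longest transcript where it had none. The median length was 1461 nt for the 50 genes over 2-fold higher on the left and 2304 nt for the 135 up to 2-fold. It was 2960 nt for the 14 over 2-fold on the right and 3337 nt for the 205 up to 2-fold. Over all tested genes it was 3051 nt. The median GC content was 53.8%, 50.2%, 50.7%, 48.4% and 49.4% in the same order. The median level was 20.2 normalized counts in the 50, 198 in the 135, 20.5 in the 14 and 290.9 in the 205, against 59.8 over all genes. These values are given with no test.

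DSS mice gave the same comparison in animals that the control test did not use. In them 133 genes (0.916%) passed, 40 (0.275%) on the left and 93 (0.640%) on the right. Of the 185 genes higher on the left in control mice, 171 had the same direction in DSS mice and 15 passed there too. Of the 219 higher on the right, 194 had the same direction and 50 passed. Genes that passed in both groups numbered 65, which is 16.1% of the control calls and 48.9% of the DSS calls, and all 65 had 1 direction. For comparison, 63.1% of all tested genes higher on the left in control mice, and 59.9% of those higher on the right, kept their direction. The libraries of DSS mice share the odd and even numbering of the sides.

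Of the 50 genes over 2-fold higher on the left, 48 (96%) kept their direction in DSS mice, and of the 135 up to 2-fold 123 (91.1%) did. The 205 genes up to 2-fold higher on the right did so in 193 cases (94.1%), with a DSS median of -0.29 against -0.38 in controls. Lamp1 was at 4387 to 4960 on the left and 6166 to 7621 on the right in the 7 DSS mice, a log2 difference of -0.54 (limma, adjusted p = 0.00862). Ndufa12 differed by -0.55 and Dync1i2 by -0.45 in DSS mice, each lower on the left in 7 of 7. Stratified epithelium markers were higher on the left in 29 of 31 cases, with a DSS median of 0.88 and 7 past the threshold. Krt5 was higher on the left in 7 of 7 DSS mice, at 23.5 to 89.8 on the left and 3.97 to 26.5 on the right in 6 of them and at 804 and 103 in DSS_16.3. Its log2 difference there was 1.92 (limma, adjusted p = 0.00862), against 2.76 in controls, and the difference between the groups, 0.84, did not pass (limma, adjusted p = 0.588).

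**Figure D4:**
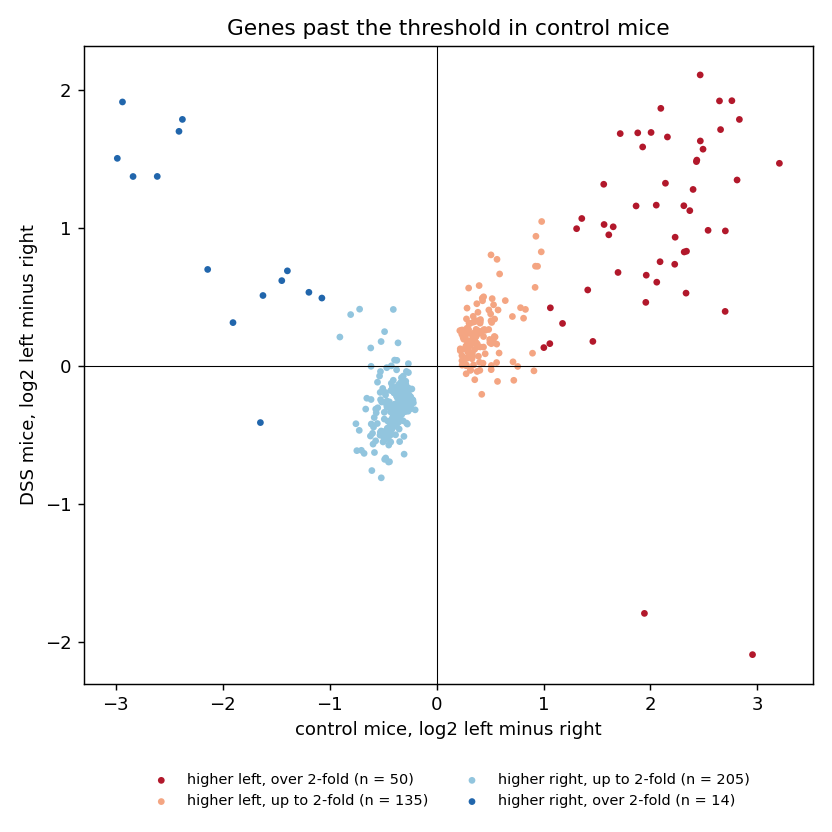
Log2 left minus right in control mice (x axis) and DSS mice (y axis) for the 404 genes past the threshold in controls, coloured by direction and by whether the control difference was over 2-fold. Points of 3 of the sets lie mostly in the quadrants of equal sign, and 13 of the 14 genes over 2-fold higher on the right in controls have a positive DSS value.

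No gene passed the test of the difference between control and DSS mice in limma, where 1223 genes (8.42%) had an unadjusted p under 0.05. Gm43028 passed in edgeR (log2 difference between the groups 5.12, adjusted p = 0.000249). Gm43028, a processed pseudogene whose reads may stem from gene copies, stood at 10.1 to 32.6 on the left and 1.24 to 4.03 on the right in 6 control mice, and at 1 or less on both sides in control_10.5 and control_16.9. In DSS mice it stood at 14.2 to 29.98 on the right and 2.11 to 6.86 on the left in 5 animals, and at 3.20 or less in both ovaries of DSS_11.2 and DSS_16.3. Rpl21-ps5, a ribosomal protein pseudogene, had a log2 difference of 2.95 in control and -2.09 in DSS mice; its reads may stem from copies of Rpl21. Dcpp1, a demilune cell and parotid protein, had -2.30 and 2.04. It lay highest at 171 in the right ovary of control_10.5 and at 179 in the left ovary of DSS_11.2, both rich in Ovgp1. The right ovaries of control_13.4 and control_16.9 had 99.0 and 13.07, and the left ovary of DSS_10.4 had 43.4. Both ovaries of DSS_11.1 (8.95 and 9.13) and the right one of DSS_13.2 (0.95), also rich in Ovgp1, had less. The left ovary of control_13.4 had 32.45, with Ovgp1 at 264. Brd1, Gm26670 and Il20rb, the remaining genes with the smallest p, did not pass either.

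Among the markers of the ovary's own cells 1 passed, Ptch1. At 2.78% of all tested genes past the threshold, lists of this size hold few or no called genes, so their counts lie near that background. Of 18 tested granulosa markers none passed in either direction, with a median of 0.21 and 15 higher on the left. None of 18 oocyte markers passed (median 0.13, 13 higher on the left), none of 14 corpus luteum markers (0.03, 8 higher), none of 16 steroid synthesis genes (0.09, 10 higher) and none of 21 cell cycle genes (0.18, 18 higher). Of 11 theca and interstitial markers 1 passed: Ptch1, the receptor of hedgehog signals from granulosa cells. Ptch1 ran from 208 through 300.4 to 370 on the left and from 169 through 211 to 282 on the right, a log2 difference of 0.41 (limma, adjusted p = 0.0298). Its call was lost when any 1 mouse other than control_15.4 or control_16.9 was left out, with log2 differences of 0.35 to 0.44, and without the expression minimum, without the mouse block or in 1 fit over all 30 libraries. In DSS mice the medians of the granulosa, oocyte and cell cycle lists were -0.29, -0.22 and -0.13, of opposite sign. Genes of left-right patterning in the embryo were mostly too low: Lefty1 and Dand5 were tested, 2 of 8, and neither passed.

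Within single mice, ovarian function genes could differ strongly, with no common side. In control_15.4 the right ovary had more Cyp19a1, the aromatase of mature granulosa cells, at 171 against 53.0, more Inhba, an activin subunit, at 947 against 298.05, and more Cyp17a1, the androgen enzyme of theca cells, at 2534 against 917. Its left ovary had more Star, which carries cholesterol into mitochondria, at 7657 against 3381, and more Lhcgr, the luteinizing hormone receptor, at 2596 against 992. In control_10.5 the order of the follicle genes was the opposite, with Cyp19a1 at 135 on the left and 26.0 on the right and Inhba at 747 and 206. In control_13.5 it was the right ovary that had more Star, 7136 against 3918, and more Hsd17b7, an enzyme of corpora lutea, 2345 against 693. Akr1c18, which breaks down progesterone, was higher on the left in control_10.5, at 499 against 113, and in control_10.6, at 503 against 111. Inhba and Hsd17b7 were chosen after their values were seen.

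**Figure D5:**
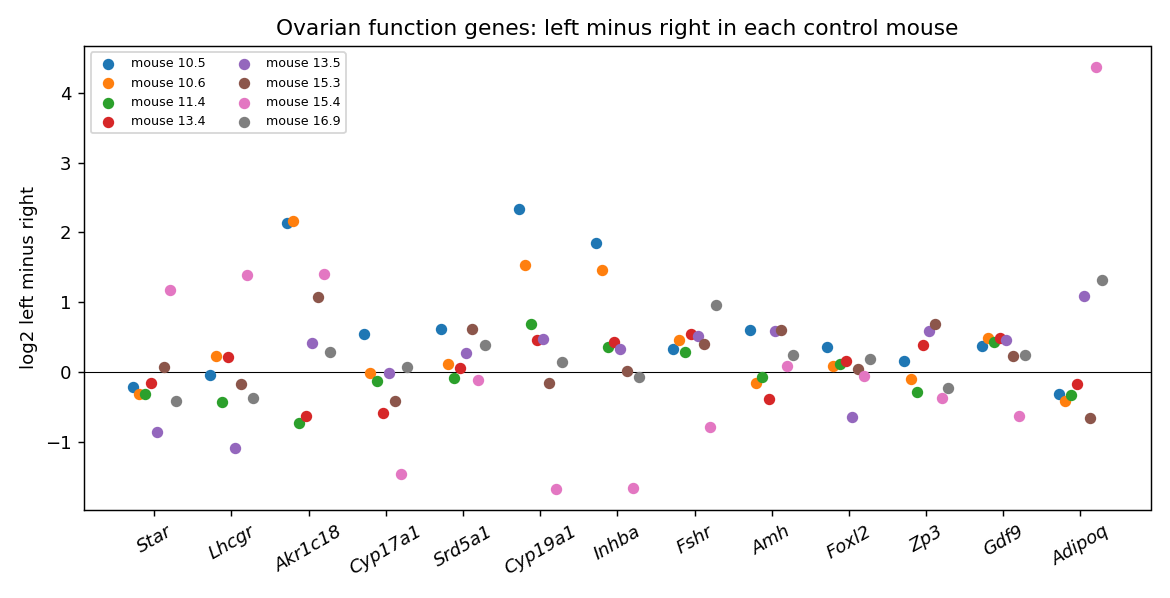
Left minus right log2(normalized count + 1) of 13 genes of ovarian function and of fat (Adipoq), 1 point per control mouse. Points of most genes lie on both sides of 0, and control_15.4 lies at one end for Star, Lhcgr, Cyp17a1, Cyp19a1, Inhba, Fshr, Gdf9 and Adipoq.

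Over the 8 mice none of these differences passed. Cyp19a1 differed by 0.47 ± 0.29 (SE), Fshr, the receptor of follicle-stimulating hormone, by 0.34 ± 0.18, Amh by 0.19 ± 0.10, Star by -0.13 ± 0.14, Lhcgr by -0.04 ± 0.17, Cyp17a1 by -0.25 ± 0.15 and Akr1c18 by 0.77 ± 0.27. Gdf9, the oocyte's growth factor for granulosa cells, was higher on the left in 7 of 8 mice, with 269 to 403 on the left and 200 to 463 on the right, and differed by 0.26 ± 0.10 (limma, adjusted p = 0.205). Srd5a1, the 5α-reductase of steroid metabolism, was at 278 to 472 and 184 to 406, a difference of 0.24 ± 0.09 (adjusted p = 0.168). Zp3, of the egg coat, was higher on the left in 4 of 8 mice.

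Blood and fat genes were also read. All 5 erythroid markers had a higher mean log2 level on the right, with a median of -0.50, and Hba-a1, an alpha globin with the near-identical copy Hba-a2, passed with -0.75 (limma, adjusted p = 0.0198; higher on the right in 6 of 8 mice). That call was lost without control_10.6, control_11.4, control_13.5 or control_16.9, with log2 differences of -0.63 to -0.70, and without the mouse block or in 1 fit over all 30 libraries. Of 9 tested adipose markers 8 were higher on the left, with a median of 0.61, and none passed. Adipoq, adiponectin of fat cells, stood at 207 on the left and 9.07 on the right in control_15.4 and at 564 and 225 in control_16.9, but was higher on the right in 5 of 8 mice. Macrophage markers had a median of 0.26 and surface epithelium markers one of 0.17, with none past the threshold among 12 and 13. The part of blood, fat or oviduct RNA in the other differences was not tested. Without the 3 mice whose right ovaries were rich in Ovgp1 the stratified list had a median of 1.13, against 1.61 in all 8. The first is over fewer markers, because the expression minimum was applied anew.

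Measured over all tested genes, low ones included, the ovaries of a mouse were only a little more alike than ovaries of different mice. Counting noise of low genes enters both values of this measure. The SD over genes of the left minus right log2 difference had a median of 0.61 in the 8 mice (0.58 to 0.78) and of 0.66 over the 56 pairs of a left and a right ovary from different mice (0.56 to 0.94). Pairs share libraries, so no test is given. For each gene, the within-mouse SD is that of a single ovary and the between-mouse SD that of a mean of both ovaries, so that without any mouse effect the first would be the larger. Among 7896 genes with a mean of at least 50, ordered by the ratio of the SDs, at one end stood genes that followed the animal: 1810024B03Rik, Alas1, the first enzyme of haem synthesis, Zfp386, Gm37758 and Cirbp, a cold-inducible RNA-binding protein. Alas1 ran from 101 to 487 on the left and from 97.1 to 319 on the right, with a within-mouse SD of 0.14 and a between-mouse SD of 0.66 on the log2 scale. At the other end stood Hmgn1, Fnip1, Pqlc1, Mrfap1 and Lyrm2, whose mouse means hardly differed; Lyrm2 had a within-mouse SD of 0.16 and a between-mouse SD of 0.02.

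For the stratified epithelium markers the median within-mouse SD was 0.78 and the median between-mouse SD 1.33. For motile cilia these were 1.44 and 1.15. Both exceeded the medians of all tested genes, 0.26 within and 0.22 between.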

How the data were processed

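Per the labels' protocols, RNA was extracted with TRIzol, cleaned on a column and made into CEL-Seq libraries with 3 barcoded primers per sample. The submitters' processing notes name TopHat, HTSeq, DESeq2 and the build GRCm38.p5; versions, the strand setting and the handling of molecular identifiers are not given in the sources used here. The values deposited by the authors are a signal per gene, namely reads scaled by a size factor, one to a library. In all 30 libraries 100% of values came out as whole reads, within 0.0051, once divided by that library's step, 0.528 to 1.33; in 3 the step lay within about 1% of 1. These recovered reads gave depths and count tests. Of 50600 genes, 23753 were at 0 in all control libraries.

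Log2(value + 1) of 14524 genes was tested two-sided with limma (version 3.58.1, trend option, mouse as block) under R 4.3.3; this scale understates changes of low genes. Both ovaries of a mouse carry its number in the titles, which is where the pairing comes from. DSS mice were tested on the same genes, and the groups were compared on each mouse's left minus right value. Count tests used edgeR 4.0.16, which called 523 genes, and DESeq2 1.42.0. The tests were tested on simulated data. Genes were named by a rule: the 15 with the smallest p per direction, 3 per direction for the difference between groups, 2 to 4 per list described, a set of ovarian and marker genes, and 5 at each end of the spread. The members, the 30 gene lists and this rule were chosen with earlier results of these data known. Alternatives changed the pseudocount, filter, scaling, block, tool and mice.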

Additional observations from a re-analysis of the deposited data

Results flagged for a closer look

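In 9 of 51 genes examined, 1 control mouse lay far from the other 7 in its left minus right log2 difference, beyond the 95% limit of Dixon's test; chance puts about 1 in 20 groups beyond it, and genes of 1 mouse are not independent. control_15.4 was that animal for 5 of the 9: Adipoq (4.37, next mouse 1.32), Star (1.18, next 0.07), Fshr (-0.79, next 0.28), Gdf9 (-0.64, next 0.23) and 1810024B03Rik (-0.85, next -0.71). It had higher Adipoq and Star on the left and higher Fshr and Gdf9 on the right. For Fshr and Gdf9 the other 7 mice lay on the opposite side, while for Adipoq control_13.5 and control_16.9 lay on the same side. It was also the mouse with the fewest of the called genes in the common direction (163 of 185 on the left, 191 of 219 on the right). control_10.5 stood apart for Tpm1 (-0.84, next -0.54) and Dcpp1 (-7.42, next -3.08), control_11.4 for Zfp282 (-0.34, next -0.67) and control_13.5 for Foxl2 (-0.64, next -0.07). For Zfp282, Tpm1 and 1810024B03Rik the mouse had the same direction as the others. For Foxl2, a transcription factor of granulosa cells, control_13.5 had 147 normalized counts on the left and 230 on the right.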

How the results depend on the processing

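All 404 genes kept their direction under every setting in which they were tested. Medians were followed for 10 of the gene lists only, and all 160 alternative medians moved by less than the list's own SD over mice. That limit is wide for lists that vary much between mice. The number of genes past the threshold did change. It was 223 without a filter (0.313% of tested genes higher on the left, 0.518% on the right) and 299 in DESeq2 (0.757% left), which gave 6921 genes an adjusted p; of the 404 genes 316 had one there and 258 passed. With no replicate block, so that the pairing by mouse was not used, it was 187 (0.468% left, 0.819% right), and 23 of 51 named genes still passed. Leaving out 1 mouse gave 179 to 687 (0.475% to 2.08% left, 0.752% to 2.64% right), and leaving out the 3 mice with an oviductin-rich right ovary gave 36 (0.112% left, 0.14% right). Quantile normalization gave 430, of which 217 were higher on the left. Of the 22 stratified markers that passed, 15 did so without a filter and 5 with no replicate block; DESeq2 gave 10 of them an adjusted p, and 10 passed. In DSS mice the count of 133 became 232 at a mean of at least 20, 69 after quantile normalization and 210 with no replicate block. For the difference between groups edgeR called 1 gene. Values near 0 turned sign when single mice were left out. Foxl2 ranged from -0.01512 to 0.13 (-0.09015 without the 3 mice), Lhcgr from -0.24 to 0.11, Cela1 from -0.08096 to 0.11, Ccl25 from -0.19 to 0.0128 (0.10 without the 3 mice), Psmb11 from -0.25 to 0.02565, Lefty1 from -0.29 to 0.10, and the log2 ratio of total reads from -0.136 to 0.0058. None of these had passed a test. Leaving out mice fits fewer animals and dropping the filter adjusts over more genes; other causes were not tested. Genes at a few reads per library, such as Foxj1, Trp63 or Gm43028, are the least precise.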
